A study of Macaca mulatta with 2 samples.

Results

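The immediate early and cAMP-induced genes described here are 43 genes, many of which a cell switches on within minutes to hours of a hormone or growth factor signal. They were chosen by name, as the spots of both arrays that carry the name of a listed immediate early or CREB-driven gene, and all 43 were found. They took 70 of the 41000 probes and 97 of the 43376 spots, and 60 of their probes passed the filter on dim signal. All 43 genes were measured by 1 or more of these probes, out of 19611 genes measured in all.

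The 2 arrays each set RNA of 1 pubertal Sertoli cell culture against RNA of 1 infant culture, with the dyes swapped between arrays. Sertoli cells line the seminiferous tubule and nourish the germ cells, and these were primary cultures from rhesus macaque testis. The pubertal cultures came from juvenile males aged 18 to 22 months whose puberty was induced by gonadotropin-releasing hormone (GnRH), infused at 0.15 µg/min for 2 min once in 3 h over 4 to 5 weeks. Infant males, all below 3 months of age, gave the infant cultures. Before RNA was taken, all 4 cultures were kept for 24 h with follicle-stimulating hormone (FSH) at 5 ng/ml and testosterone at 100 nM. The 4 cultures came from different animals, and no culture without the hormones is analysed here. Array 1 carried pubertal RNA in Cy5 beside infant RNA in Cy3, and array 2 carried pubertal RNA in Cy3 beside infant RNA in Cy5. The comparison asks how both stages of Sertoli cell maturation differ under the same hormones. The p-values below rest on 2 array pairs, and each pair differs in animals as well as in dye.

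FSH acts on Sertoli cells through a G protein-coupled receptor that raises cAMP. cAMP activates protein kinase A, which phosphorylates the transcription factor CREB, and CREB then switches on genes with cAMP response elements in their promoters. Growth factors and stress reach an overlapping set of genes through the ERK kinases and serum response factor. The first genes to respond, such as FOS, JUN, EGR1 and NR4A1, encode short-lived transcription factors, and others, such as the DUSP phosphatases and ZFP36, shut the signal or the messages off again. Many of these messages peak early after a stimulus and decline within hours.

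The probes were 60 bases long and designed on human genes, so each ratio compares macaque RNAs bound to a human sequence. Sequences are shown for the genes on which the results below turn and whose human gene context can be read from the probe, with coordinates on the human build hg17. For CREM, the cAMP response element modulator, 2 probes lie in the stretch where the gene carries alternative versions of its DNA-binding end. The capitals mark the runs of 6 or more bases that both probes hold.
CREM probe A_24_P278393, chr10:35540257-35540316, plus strand: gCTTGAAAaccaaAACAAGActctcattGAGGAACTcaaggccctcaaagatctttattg
CREM probe A_24_P171075, chr10:35540647-35540706, plus strand: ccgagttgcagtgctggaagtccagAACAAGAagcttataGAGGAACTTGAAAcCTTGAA
The probe of JUN, an AP-1 subunit with like ratios on both arrays, covers the end of the reading frame, and the capitals mark its stop codon.
JUN probe A_23_P201538, chr1:58959750-58959809, minus strand: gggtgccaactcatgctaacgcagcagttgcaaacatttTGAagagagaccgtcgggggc
The probe of KLF4, the gene with the highest mean ratio of the 43, lies in the zinc finger region, and the capitals mark the codons of a cysteine pair (TGC) with the 6 bases between them.
KLF4 probe A_23_P32233, chr9:107327604-107327663, minus strand: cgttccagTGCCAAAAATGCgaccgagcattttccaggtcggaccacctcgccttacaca

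Signal was well above background for 74.8% of spots in the pubertal channel of array 1 and 62.6% in that of array 2, against 60.9% and 71.5% in the infant channels. Of the 43 genes, 41 were above background in all 4 channels, and FOSB and BDNF were so in both pubertal channels and in 1 of 2 infant channels. Values below are log2 ratios of pubertal over infant, and levels are normalized log2 intensities, which compare cultures for 1 probe and not genes with each other. On bulk RNA, fewer cells of a type and less RNA per cell cannot be told apart. Of 15 Sertoli cell markers measured, 7 were higher in the pubertal culture on both arrays (46.7%, against 23.5% of all genes) and 2 were lower (13.3%, against 21.9%), and their summed log2 level was 16.7 and 16.6 in the pubertal cultures, against 16.5 and 16.3 in the infant cultures. FSHR, the FSH receptor itself, lay at 6.55 and 6.53 in the pubertal cultures and at 6.79 and 6.70 in the infant cultures, near the dim end of the range.

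No gene of the 19611 had an adjusted p under 0.05 by limma (0%), and 792 had an unadjusted p under 0.05 (4.04%). None of the 43 genes passed, with an adjusted p of 0.99998 each, and 4 (9.3%) had an unadjusted p under 0.05, namely GEM, JUN, KLF4 and EGR1. These 4 depended on the processing. With the scanner's processed signals, and likewise with offset 0, GEM, KLF4 and BDNF were under 0.05 (1169 and 1049 of all genes). With median centring none of the 43 was (104 of all genes). In a fit with an intensity trend GEM and BDNF were, and JUN, KLF4 and EGR1 were not. With 2 pairs a sign-flip permutation test cannot go below 0.5. Thus the values below describe 2 pairs of cultures, and no difference among them passed the adjustment over all genes.

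By stage, the counts of the 43 genes were close to those of all genes. Their ratio was above 0 on both arrays for 8 genes (18.6%, against 23.5% of all genes) and below 0 on both for 9 genes (20.9%, against 21.9% of all genes). The other 26 had opposite signs, and for these the same dye was brighter on both arrays. Of the 8 genes above 0, FOSB, KLF6 and DUSP10 had ratios of 0.08 or less, and the mean of DUSP10 was below 0 with the scanner's processed signals and with median centring, as was that of FOSB with median centring. FOSB and BDNF, also among the 8, passed the filter only through the pubertal channels. A stricter filter left out both, and then 6 of 41 genes were above 0 on both arrays (22.4% of all genes). Cy5 was brighter for 19 (44.2%, against 31.5% of all genes) and Cy3 for 7 (16.3%, against 23.2% of all genes). Each of these patterns depends on both a dye and a culture, so that dye and culture cannot be told apart.

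**Figure D1:**
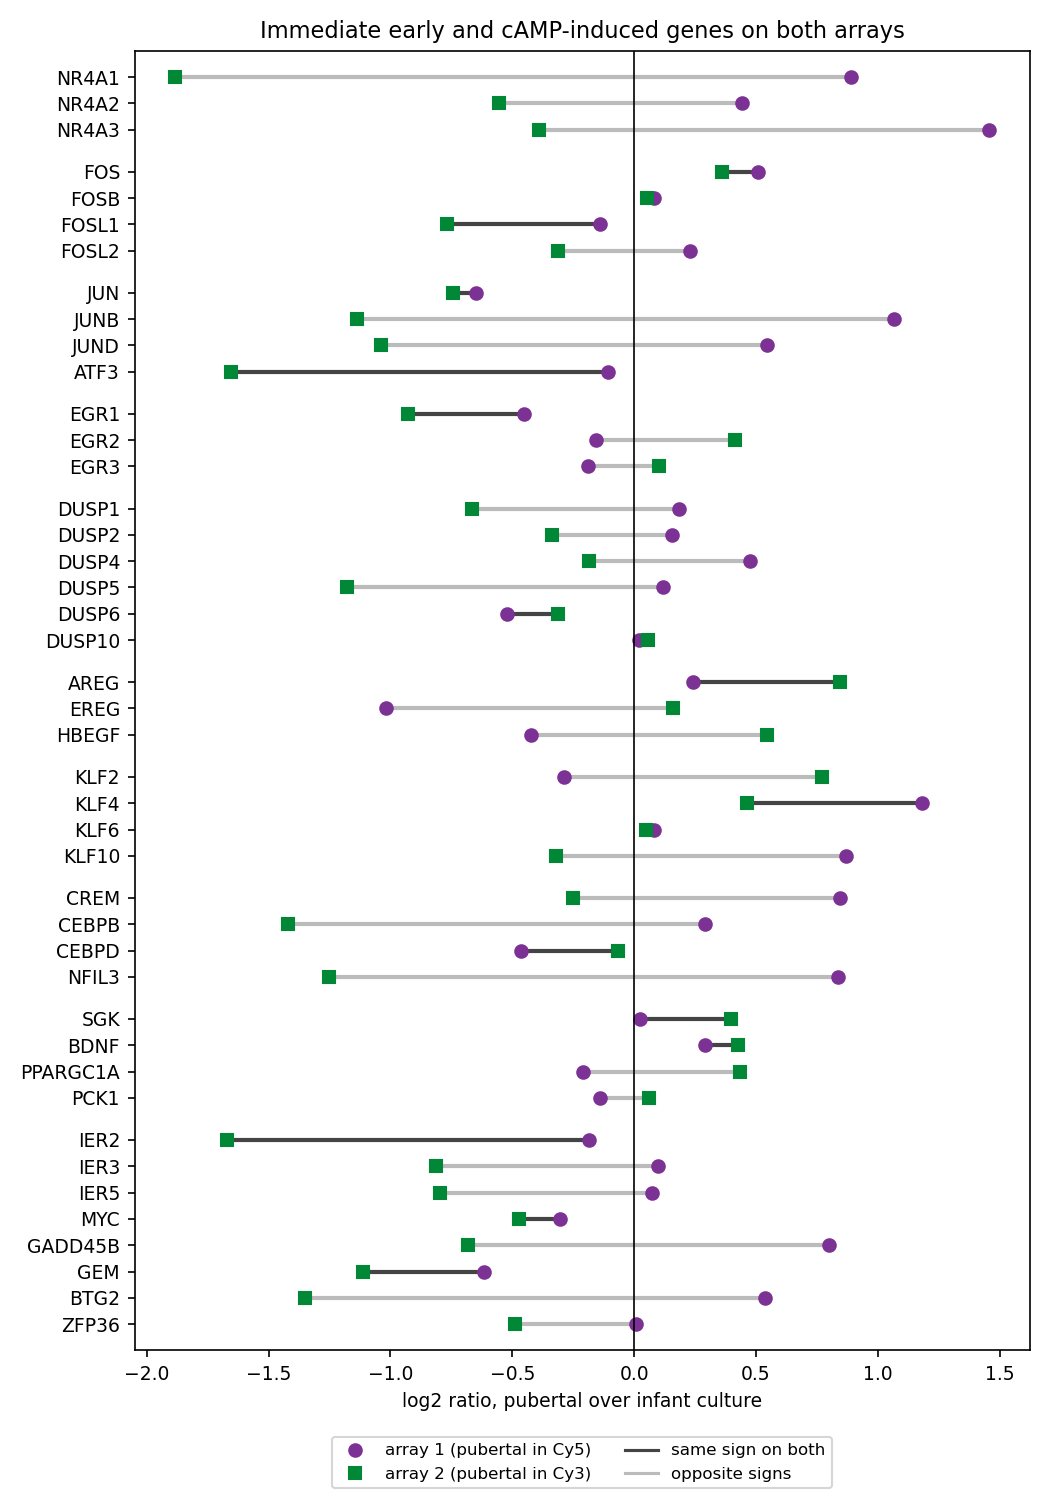
The log2 ratio of pubertal over infant culture for each of the 43 genes, grouped by role, on array 1 (circles, pubertal in Cy5) and array 2 (squares, pubertal in Cy3). Dark lines join ratios of the same sign (8 genes above 0, 9 below) and pale lines those of opposite signs, which run to the left on array 2 for 19 of 26 genes. No error is drawn because each point is 1 pair of cultures.

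The NR4A genes encode orphan nuclear receptors that are quickly induced by cAMP in steroidogenic and other cells. NR4A1 (also Nur77) stood at 13.47 and 12.05 in the pubertal cultures and at 12.59 and 13.94 in the infant cultures of arrays 1 and 2. The pubertal culture of array 1 and the infant culture of array 2 were the high ones, so the groups overlapped. The ratios were 0.89 and -1.88, which average to -0.50 ± 0.67 (moderated SE of the fit, over n = 2 pairs, as for all means below). NR4A3 stood at 12.88 and 10.63 in the pubertal cultures and at 11.42 and 11.03 in the infant cultures. Here the pubertal culture of array 1 stood above the other 3, and the ratios were 1.46 and -0.39. NR4A2 had ratios of 0.44 and -0.55. All 3 receptors were thus brighter in Cy5 on both arrays (31.5% of all genes).

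FOS and its relatives pair with JUN proteins to form AP-1, the factor that carries early signals on to later genes. FOS stood at 13.89 and 12.90 in the pubertal cultures and at 13.38 and 12.54 in the infant cultures. Both arrays put the pubertal culture above the infant culture, but the infant culture of array 1 was above the pubertal culture of array 2. The ratios were 0.51 and 0.36, with a mean of 0.43 ± 0.24, and with median centring they had opposite signs. The FOS levels of both cultures of array 1 were above those of array 2. FOSB, whose ratios were 0.08 and 0.05, was dim and not above background in 1 infant channel. FOSL1, a slower FOS relative, had ratios of -0.14 and -0.77 (-0.57 and -1.27 with the scanner's processed signals), and FOSL2 had 0.23 and -0.31. The 3 probes of FOSL2 had the same signs.

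Among the JUN genes, JUN itself was the one with like values on both arrays. It stood at 11.45 and 12.42 in the pubertal cultures, against 12.09 and 13.16 in the infant cultures. The pubertal culture was the lower one of each pair, while the infant culture of array 1 was below the pubertal culture of array 2. The ratios were -0.65 and -0.74, a mean of -0.70 ± 0.24, or 1.62-fold lower in pubertal cultures (unadjusted p = 0.0347 by limma, adjusted p = 0.99998). Its 10 spots gave -0.65 ± 0.09 (SD, 9 spots after outlier flags) on array 1 and -0.74 ± 0.08 (SD, 10 spots) on array 2, so the spots of 1 array differed less than their distance from 0. With median centring in place of loess, JUN, EGR1, GEM, MYC, DUSP6, IER2, ATF3 and CEBPD had opposite signs on the arrays. That setting also moved the median of all genes to 0.63 and -0.42. Set against these medians, JUN (-0.22 and -1.07), EGR1 (-0.14 and -1.18) and GEM (-0.54 and -1.28) stood below on both arrays. So did DUSP6 (-0.22 and -0.57) and ATF3 (-0.06 and -1.83). IER2 (0.39 and -2.07), MYC (0.23 and -0.83) and CEBPD (0.23 and -0.54) stood on opposite sides.

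JUNB, which can restrain JUN, ran the opposite way on the arrays at more than 2-fold each. It stood at 14.93 and 13.94 in the pubertal cultures and at 13.87 and 15.08 in the infant cultures. The pubertal culture of array 1 and the infant culture of array 2 were both high, and both were in Cy5. The ratios were 1.06 and -1.14, a mean of -0.04 ± 0.56 (unadjusted p = 0.951 by limma, adjusted p = 0.99998). Its probe was saturated in the pubertal Cy5 channel of array 1. A dimmer JUNB probe, at a mean log2 intensity of 9.90, gave -0.20 and 0.13. JUND, the constitutive member of the family, had ratios of 0.55 and -1.04. ATF3, a stress-induced partner of JUN, stood at 8.93 and 9.57 in the pubertal cultures, against 9.04 and 11.22 in the infant cultures. The infant culture of array 2 alone was high, and the ratios were -0.11 and -1.65. The further ATF3 probe gave -0.20 and -0.96, and the authors' deposited table gave ATF3 0.01 and -1.87.

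The EGR genes encode zinc finger factors driven by serum response factor. EGR1 stood at 10.59 and 11.28 in the pubertal cultures and at 11.04 and 12.21 in the infant cultures. Within each pair the pubertal culture was lower, and the groups overlapped. The ratios were -0.45 and -0.93, a mean of -0.69 ± 0.26, or 1.61-fold lower in pubertal cultures (unadjusted p = 0.0473 by limma, adjusted p = 0.99998). EGR2 and EGR3 did not share these signs: their ratios were -0.15 and 0.41 for EGR2 and -0.19 and 0.10 for EGR3.

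**Figure D2:**
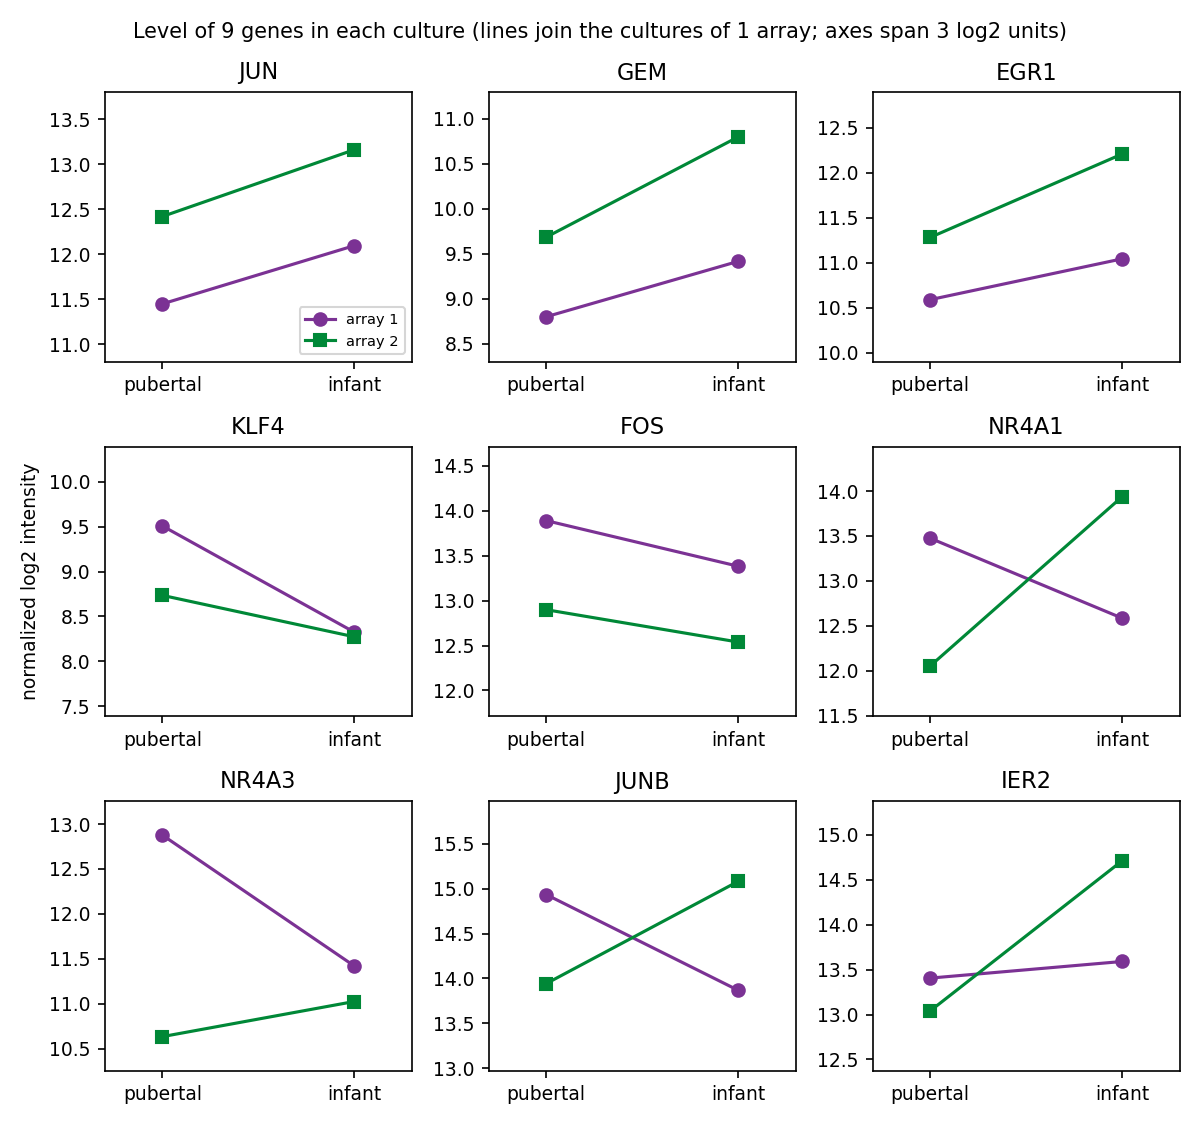
Normalized log2 intensity of 9 genes in the pubertal (left) and infant (right) culture of array 1 (circles) and array 2 (squares), each panel spanning 3 log2 units, with lines joining the cultures of 1 array. The lines of JUN, GEM and EGR1 run up on both arrays and those of KLF4 and FOS run down, while those of NR4A1, NR4A3 and JUNB run opposite ways. With median centring JUN, GEM, EGR1, IER2 and FOS had opposite signs on the arrays.

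The DUSP phosphatases take the phosphate off MAP kinases and so end the signal that induced them. DUSP1 stood at 13.06 and 13.15 in the pubertal cultures and at 12.88 and 13.81 in the infant cultures, with ratios of 0.18 and -0.67. DUSP6, which acts on ERK, stood at 10.43 and 11.66 in the pubertal cultures, against 10.95 and 11.97 in the infant cultures. It was the 1 phosphatase of 6 with the pubertal culture lower on both arrays, at -0.52 and -0.31, a mean of -0.42 ± 0.24. DUSP5, another ERK phosphatase, had 0.12 and -1.18. DUSP2 had 0.16 and -0.34, DUSP4 0.47 and -0.18, and DUSP10, close to background, 0.02 and 0.06.

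AREG, EREG and HBEGF are ligands of the EGF receptor, and luteinizing hormone induces AREG and EREG in the follicle of the ovary. AREG (amphiregulin) stood at 8.64 and 8.88 in the pubertal cultures and at 8.40 and 8.04 in the infant cultures, so that both pubertal values were above both infant values. Its ratios were 0.24 and 0.84, a mean of 0.54 ± 0.27 or 1.46-fold. EREG (epiregulin) stood at 6.41 and 6.85 in the pubertal cultures and at 7.43 and 6.69 in the infant cultures, with ratios of -1.02 and 0.16. In the authors' deposited table the EREG ratios were -2.31 and 0.67, with the same signs and larger sizes. HBEGF stood at 9.38 and 11.11 in the pubertal cultures and at 9.80 and 10.56 in the infant cultures, with ratios of -0.42 and 0.55. EREG and HBEGF were thus brighter in Cy3 on both arrays, and each had a further probe with the same signs.

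The Krüppel-like factors KLF2, KLF4, KLF6 and KLF10 are zinc finger regulators of growth arrest and differentiation, and in the mouse KLF4 is expressed in differentiating Sertoli cells. KLF4 stood at 9.51 and 8.74 in the pubertal cultures, against 8.33 and 8.27 in the infant cultures. Both pubertal values were above both infant values, with the array 1 culture the highest. The ratios were 1.18 and 0.46, a mean of 0.82 ± 0.29 or 1.77-fold (unadjusted p = 0.0377 by limma, adjusted p = 0.99998). The authors' deposited table gave KLF4 1.33 and 0.64. KLF2 had -0.29 and 0.77 and KLF10 had 0.87 and -0.32. KLF6 had 0.08 and 0.05, while its further kept probe had -0.19 and 0.21, and another was above background in no channel.

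CREM encodes both activators and, from an inner promoter, the early cAMP repressor ICER that ends CREB-driven transcription. It stood at 12.56 and 12.36 in the pubertal cultures and at 11.72 and 12.61 in the infant cultures. The infant culture of array 1 stood apart as the lowest, and the ratios were 0.84 and -0.25, a mean of 0.30 ± 0.34. Both CREM probes printed above ran alike: the first gave 0.75 and -0.12 and the second, which stands for the gene, 0.84 and -0.25. Over the 4 CREM probes kept, array 1 gave 0.37 to 0.84 and array 2 gave -0.33 to 0.10. CEBPB, a leucine zipper factor of metabolic and hormone response, stood at 14.72 and 13.63 in the pubertal cultures and at 14.43 and 15.05 in the infant cultures. Its 10 spots gave 0.29 ± 0.10 on array 1 and -1.42 ± 0.07 on array 2 (SD over spots, some of them saturated in Cy5), and a dimmer CEBPB probe gave -0.27 and -0.62. CEBPD had -0.46 and -0.07, with a saturated spot in the pubertal channel of array 1. NFIL3, a clock-linked repressor, had 0.84 and -1.25.

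**Figure D3:**
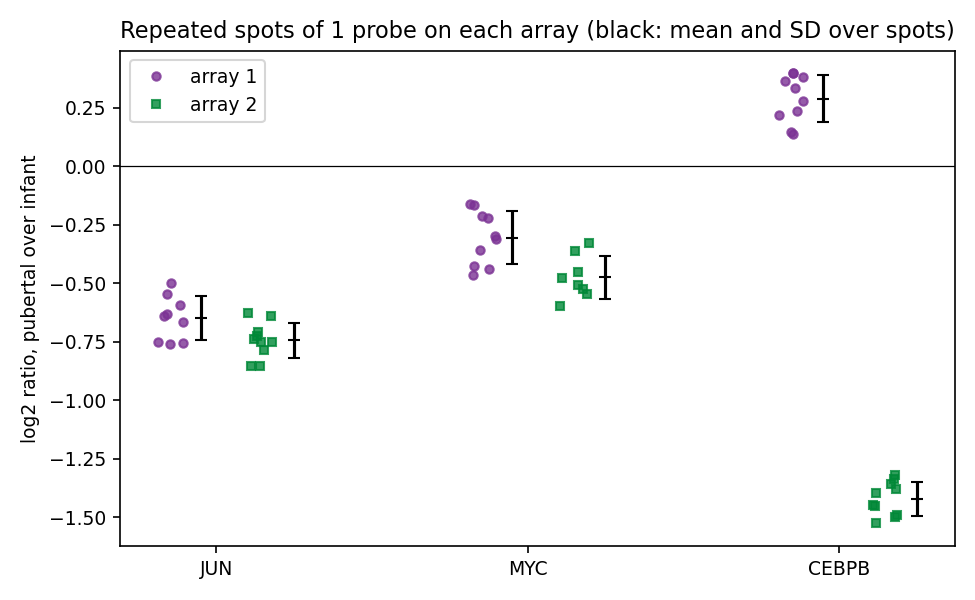
The log2 ratio of pubertal over infant culture for each of the 10 repeated spots of CEBPB, JUN and MYC on array 1 and array 2, with spots flagged as outliers left out. Spots of 1 array lie close together, while the CEBPB spots of array 1 (0.29 ± 0.10) and array 2 (-1.42 ± 0.07) are far apart. The spots share 1 pair of RNAs and are not replicates of a stage.

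The next 4 genes are known CREB targets of metabolism and secretion. BDNF, a neurotrophin, stood at 6.66 and 6.995 in the pubertal cultures and at 6.37 and 6.57 in the infant cultures, with ratios of 0.29 and 0.42. With the scanner's processed signals BDNF had 2.34 and 0.93, and its signal was not above background in the infant channel of array 1. SGK, the serum and glucocorticoid regulated kinase (now SGK1), had 0.02 and 0.40. The signs differed between arrays for PPARGC1A, a coactivator of mitochondrial genes, at -0.21 and 0.44, and for PCK1, a gluconeogenic enzyme, at -0.14 and 0.06. With the offset of 50 used here none of these 4 genes reached 0.5 on either array, but with the scanner's processed signals PPARGC1A had -0.49 and 0.77 and PCK1 had -0.56 and 0.19.

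The remaining 8 genes are immediate early genes of varied function, and none had the pubertal culture higher on both arrays (23.5% of all genes). GEM, a small GTPase that restrains calcium channels, stood at 8.80 and 9.68 in the pubertal cultures, against 9.42 and 10.80 in the infant cultures. The pubertal culture was the lower of each pair, while the infant culture of array 1 was below the pubertal culture of array 2. The ratios were -0.62 and -1.11, a mean of -0.87 ± 0.26 or 1.82-fold lower in pubertal cultures (unadjusted p = 0.0230 by limma, adjusted p = 0.99998). IER2, an early nuclear protein, stood at 13.41 and 13.04 in the pubertal cultures, against 13.59 and 14.71 in the infant cultures. Both pubertal values were below both infant values, but the ratios of -0.18 and -1.67 differed widely, and both IER2 probes showed this, since the further one gave -0.23 and -1.62.

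MYC, the growth-promoting factor, stood at 12.79 and 12.95 in the pubertal cultures, against 13.09 and 13.42 in the infant cultures, and these groups did not overlap. Its ratios were -0.30 and -0.47, a mean of -0.39 ± 0.24, from 10 spots on array 1 and 8 on array 2, and a much dimmer kept MYC probe gave 0.18 and 0.04. IER3, an early apoptosis regulator, had 0.10 and -0.81, and IER5, a regulator of the heat shock factor, had 0.07 and -0.80. GADD45B, a stress protein that binds kinases, had 0.80 and -0.68, while its further probe gave -0.06 and -0.25. BTG2, an antiproliferative gene, had 0.54 and -1.35, and ZFP36, which hastens the decay of such messages, had 0.01 and -0.49. By their brightest probes, all 8 genes were thus lower in the pubertal culture of array 2, with ratios of -0.47 to -1.67. Of all genes, 21.9% were lower on both arrays, and another 31.5% were lower on array 2 only.

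Only 3 of the 43 genes met the rule of a size of at least 0.5 in the same direction on both arrays, or of at least 1 in opposite directions. These were JUN and GEM in the first way and JUNB in the second. Of all genes, 3.91% met the first, which is close to the share of the 43 genes. As in JUNB, Cy5 was at least 2-fold brighter on both arrays for 0.25% of all genes. The JUNB probe was saturated in the pubertal channel of array 1, and a dimmer JUNB probe gave -0.20 and 0.13. In 6 of the 43 genes (14%, against 30% of all genes) the pubertal and infant levels did not overlap, with the pubertal cultures higher for AREG, KLF4 and BDNF (15.8% of all genes) and lower for CEBPD, IER2 and MYC (14.1% of all genes). BDNF passed the filter only through the pubertal channels, where it was higher. Under median centring and set against the medians of all genes, AREG and KLF4 stood above on both arrays. BDNF (-0.59 and 0.83), CEBPD, IER2 and MYC stood on opposite sides.

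The arrays differed in which genes reached 2-fold. On array 2, 10 of the 43 genes were at least 2-fold lower in the pubertal culture (23.3%, against 2.37% of all genes), and none was at least 2-fold higher (2.35% of all genes). The 10 genes were NR4A1, JUNB, JUND, ATF3, DUSP5, CEBPB, NFIL3, IER2, GEM and BTG2. On array 1, 3 were at least 2-fold higher, namely NR4A3, JUNB and KLF4 (6.98%, against 4.26% of all genes), and EREG was lower (2.33%, against 2.97% of all genes). The median ratio of the 43 genes was 0.08 on array 1 and -0.34 on array 2, against 0.05 and -0.03 over all genes. The median of their means was -0.06, against 0.01 over all genes.

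**Figure D4:**
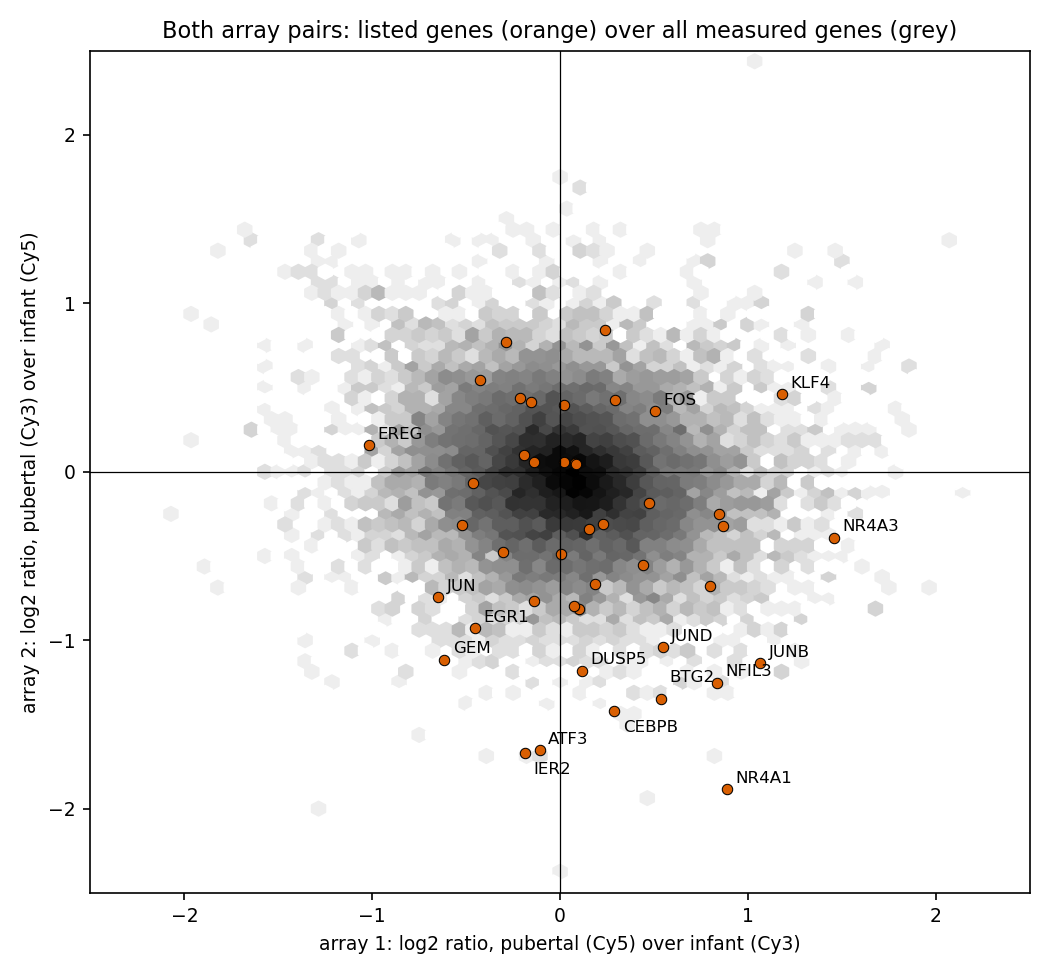
The log2 ratio of pubertal over infant culture on array 1 (horizontal) and array 2 (vertical) for the 43 genes (orange points, with names where a ratio is large or the text turns on it) over the density of all 19611 genes (grey, genes beyond the axes not drawn). The 10 genes at or below -1 on array 2 spread from left to right of 0 on array 1, and none of the 43 lies at or above 1 on array 2.

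The same data can be read within each stage. Of the 4 cultures, the infant culture of array 2 had the highest level for 20 of the 43 genes (46.5%, against 25.7% of all genes). The infant culture of array 1 had it for 3 (6.98%, against 23.1%). The pubertal cultures had it for 10 each (23.3%, against 29.4% of all genes on array 1 and 21.8% on array 2). Set against the infant culture of array 1, that of array 2 was higher for 32 of 43 genes (74.4%, against 53.7% of all genes), with a median difference of 0.44, against 0.04 over all genes. It was at least 2-fold higher for 10 genes (23.3%, against 2.96%) and at least 2-fold lower for none (2.55% of all genes). ATF3 differed most, by 2.18, followed by GEM at 1.38, NR4A1 at 1.35, JUNB at 1.21, EGR1 at 1.17 and IER2 at 1.12. Set against the pubertal culture of array 1, that of array 2 was higher for 21 of 43 genes (48.8%, against 46.7% of all genes), with a median difference of -0.01, against -0.03 over all genes. In that comparison of pubertal cultures ATF3 differed by 0.63, GEM by 0.89 and EGR1 by 0.69. NR4A1 differed by -1.42, JUNB by -0.99 and IER2 by -0.37. The infant RNA was in Cy3 on array 1 and in Cy5 on array 2, and the pubertal RNA the other way round. Animal, dye and array thus cannot be told apart within a stage. Markers of other cells differed between the same cultures. The mean log2 level of the 7 myoid markers was 12.5 in the infant culture of array 2, against 10.2 in that of array 1, and the summed log2 level of the 5 Leydig cell markers was 15.1, against 16.4. The myoid mean was likewise 12.3 in the pubertal culture of array 2, against 10.4 in that of array 1. Their part in the levels of the 43 genes was not tested.

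Bright and dim genes can be taken apart. Among the 25 genes with a mean log2 intensity of at least 10, Cy5 was brighter on both arrays for 14 (56%, against 30.1% of all such genes) and Cy3 for 2 (8%, against 25.1%). Another 3 were higher in pubertal cultures on both arrays (23.1% of all such genes) and 6 lower (21.8%). Among the 18 dimmer genes these counts were 5 for Cy5 (27.8%, against 31.5% of all genes), 5 for Cy3 (27.8%, against 23.2%), 5 higher (27.8%, against 23.5%) and 3 lower (16.7%, against 21.9%). The shares beside these 18 are of all genes, bright ones included, because dim genes were not counted apart. Over all 43 genes the mean of Cy5 over Cy3 had a median of 0.25, against 0.04 over all genes. At least 2-fold brighter Cy5 on both arrays was found for JUNB among them and for 49 of all genes (0.25%). Across the 43 genes the ratios of array 1 and array 2 had a Pearson correlation of -0.17 and a Spearman correlation of -0.19, against -0.07 and -0.10 across all genes, where genes share the same arrays and are not independent. Probes of the 43 genes had a median of 41.7% G and C bases, against 45% over all genes, and those of the 19 genes brighter in Cy5 also 41.7%.

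Where a gene had several probes, they could be set against each other on the same RNAs. Of the 14 genes with more than 1 kept probe, all probes had the same signs for 7, namely ATF3, DUSP2, EREG, FOSL2, HBEGF, IER2 and IER5. They did not for CEBPB, CREM, GADD45B, JUNB, KLF2, KLF6 and MYC. In IER2 the probes differed by at most 0.05 on either array, while the widest gap was 1.26, in JUNB on array 2. The dimmer JUNB probe holds 55% G and C bases and the brighter one 25%.

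**Figure D5:**
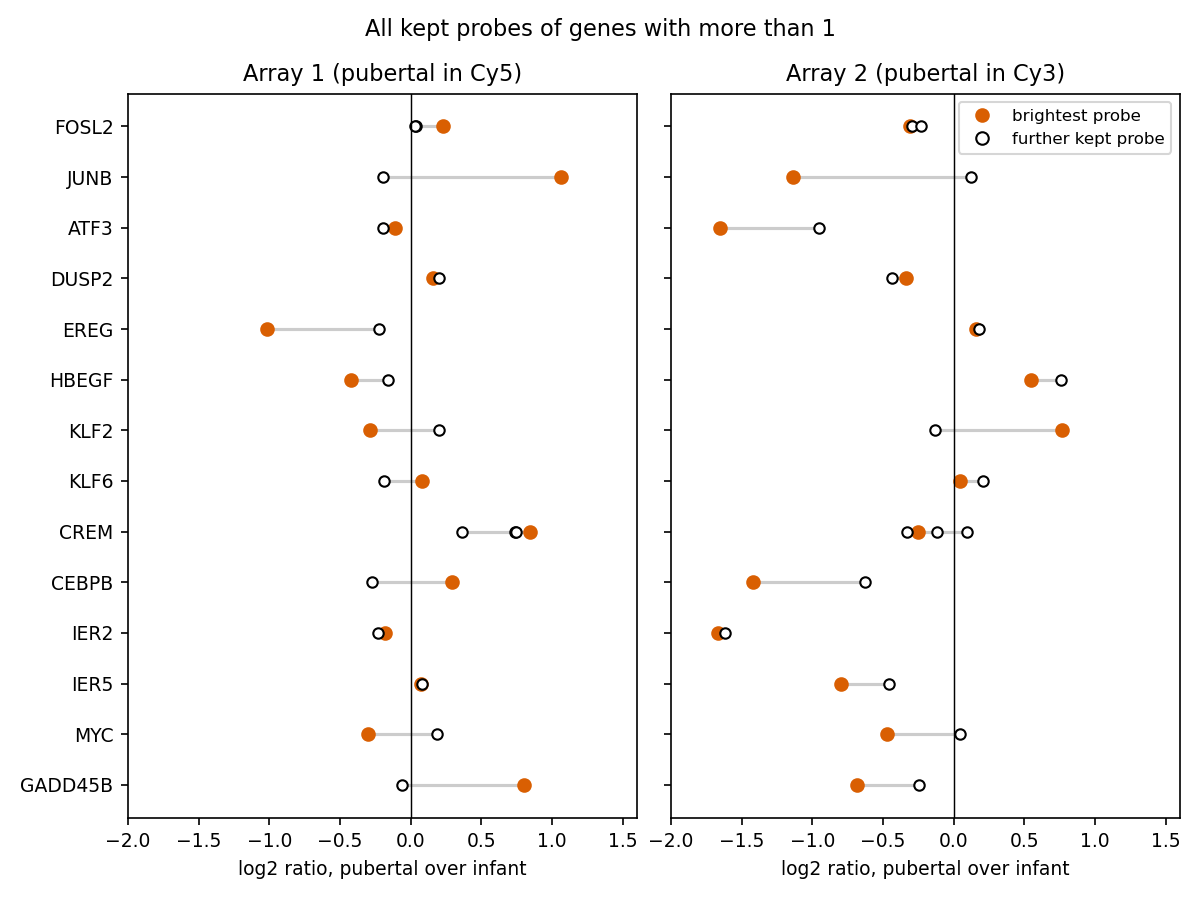
The log2 ratio of pubertal over infant culture for every kept probe of the 14 genes with more than 1, on array 1 and array 2. The probes of IER2 lie on each other, and those of JUNB (1.06 and -0.20 on array 1, -1.14 and 0.13 on array 2) lie apart.

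Other genes of the same pathways differed by list. Of 40 further immediate early genes, 37 were measured and none passed the test. Among these 7 were higher (18.9%, against 23.5% of all genes) and 13 lower (35.1%, against 21.9%) in the pubertal culture on both arrays, with medians of -0.13 and -0.26. PTGS2, the inducible prostaglandin synthase, had -0.49 and -2.47, and SPRY4, a feedback inhibitor of ERK signalling, had -1.001 and -1.68. At the other end, ID1, an inhibitor of differentiation factors, had 0.98 and 0.28, and MAFK, a small MAF factor, had 0.65 and 0.59. Of 36 further genes known to respond to cAMP or FSH, 23 were measured and none passed. There 9 were higher on both arrays (39.1%, against 23.5% of all genes) and 1 was lower (4.35%, against 21.9%), namely STC1 at -0.06 and -0.41, with medians of 0.39 and 0.19. The highest were PER2, a clock gene with a cAMP response element, at 1.43 and 0.46, and PLAT, the tissue plasminogen activator that FSH induces in Sertoli cells, at 1.597 and 0.25.

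Of 27 factors upstream, 26 were measured and none passed the test. In the pubertal culture of both arrays 4 of them stood higher (15.4%, against 23.5% of all genes) and 9 lower (34.6%, against 21.9%), and the list had medians of -0.10 and -0.06. ATF4, a stress factor of the CREB family, had -0.10 and -1.14, and the kinase BRAF had -0.65 and -0.43. RPS6KA5, a kinase of CREB and histones, had 0.85 and 0.45, and MAPK9, a JUN kinase, had 0.70 and 0.35. Pubertal and infant values of these kinases and factors thus differed in both directions.

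Markers of other cell types had the following values, beside 23.5% of all genes higher and 21.9% lower on both arrays. Stromal markers were lower in the pubertal culture on both arrays for 10 of 12 genes (83.3%) and higher for none, with medians of -1.27 and -0.77, and their summed log2 level was 15.1 and 15.6 in the pubertal cultures, against 16.3 and 16.2 in the infant cultures. Germ cell markers were higher for 12 of 14 (85.7%) and lower for none, with summed levels of 11.9 and 11.7 in the pubertal cultures, against 11.04 and 10.97 in the infant cultures. These 14 were dim, with a median log2 intensity of 7.43, against 8.96 over all genes. Their ratios ran from small, as in KIT (0.19 and 0.09) and TEX101 (0.11 and 0.06), to large, as in STK31 (2.06 and 1.35). A dim gene can pass the filter through the pubertal channels alone, which can raise such a count. Of 15 cell division genes, 11 were brighter in Cy3 on both arrays (73.3%, against 23.2% of all genes) and none in Cy5 (31.5% of all genes), with medians of -0.48 and 0.89. Of 6 heat shock genes, 1 was higher (16.7%) and 2 were lower (33.3%) on both arrays. Of 5 Leydig cell markers 1 was higher (20.0%) and 2 were lower (40.0%), and of 7 peritubular myoid markers 3 were higher (42.9%) and 2 lower (28.6%). Of 8 leukocyte markers 4 were higher (50%) and 1 lower (12.5%), and of 4 endothelial markers 2 were higher (50%) and 1 lower (25.0%). The part of other cell types, cell division and stress in the values of the 43 genes was not tested.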

How the data were processed

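The deposited scanner files hold, per the file headers, mean spot intensities and median local background intensities for both dyes, as scanned. Beside these stand intensities after the scanner software's own background subtraction and dye normalization. From these processed intensities the authors' scanner software made the deposited log10 ratios, with Cy5 on top, per the file headers. Deposited flags tell which spots are outliers, saturated or well above background. The authors' deposited table of log2 ratios covers 4848 probes. Its values had slopes of 1.006 and 1.003 against the scanner's ratios turned to pubertal over infant. It holds 17 probes of the 43 genes, and how it was filtered and normalized is not given in the sources used here. The submitters' processing notes name Agilent Feature Extraction 9.5.1.1 for the scanning. Probes are human, with hg17 coordinates per the file headers, and both arrays lay on 1 slide. Mismatches between human probes and macaque RNA were not analysed here.

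Intensities were corrected by normexp (offset 50) and normalized by loess within arrays in limma 3.58.1 under R 4.3.3. The offset shrinks the ratios of dim probes. Levels per culture come from quantile normalization of the average intensity (Aquantile). Outlier spots were left out and spots of 1 probe averaged. A probe was kept if at least 50% of its spots were well above background on both arrays for the pubertal RNA, or on both for the infant RNA. This left out 15230 probes. The brightest probe stood for a gene name. Ratios were tested with lmFit and eBayes, two-sided, with Benjamini-Hochberg adjustment over all 19611 genes. The fit had 1 residual and 3.82 prior degrees of freedom. The fit was tested on simulated log2 ratios with 1 spread for all genes, taken from the arrays, and with a smaller spread. Background correction, normalization, filters and the choice of probes were not part of that test. The number of arrays limits the precision.

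The 43 genes and the lists set beside them were chosen with earlier results of these data known, so no list was tested and counts by direction are given with the share of all genes. All 43 genes are named. Full values were set for those with a size of at least 0.5 in the same direction on both arrays or of at least 1 in opposite directions. Genes with further values were chosen after their values were seen, and of the other lists at most 2 genes at each end by mean ratio, with the same sign on both arrays, are named. FSHR is among these, as 1 of the lowest Sertoli markers. Alternatives were the scanner's processed signals, offset 0, median centring, other filters, the mean of all probes, an intensity trend, unsaturated genes and the authors' table. Setting the median of all genes to 0 after median centring was added after seeing the data.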

Additional observations from a re-analysis of the deposited data

How the results depend on the processing

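The count of genes past the adjusted threshold was 0 in the setting reported and 1 each with offset 0, with median centring and with an intensity trend, and none of these was among the 43. Members above 0 on both arrays numbered 8 (23.5% of all genes), against 5 with the scanner's processed signals (23.7% of all genes). With median centring followed by setting the median of all genes to 0 they also numbered 5 (15.3% of all genes). In that setting 7 members were below 0 on both arrays (15.3% of all genes) and 22 were brighter in Cy5 on both (34.7% of all genes). Members below 0 on both arrays numbered 9 (21.9% of all genes), against 2 with median centring alone, where 9.75% of all genes were below 0 on both. With the scanner's processed signals they again numbered 9 (23.2% of all genes), but not the same 9. There ATF3 and CEBPD had opposite signs, and EGR3 and DUSP10 were below 0 on both. Of the 17 genes with the same sign on both arrays, 12 kept their signs with the scanner's processed signals and 4 with median centring alone. The cause of these shifts was not tested. The mean of DUSP10 turned to -0.39 with the scanner's processed signals and to -0.11 with median centring, and that of FOSB to -0.0499 with median centring. Genes brighter in Cy5 on both arrays numbered 19 of the 43 (31.5% of all genes). They numbered 21 with the scanner's processed signals (29.3% of all genes) and 18 with offset 0 (31.2% of all genes). With median centring alone they numbered 31, where the share of all genes was 68.3%. Genes at least 2-fold lower on array 2 numbered 10 (2.37% of all genes), against 8 to 19 over the alternatives, with 11 where all genes had 5.42% (the scanner's processed signals) and 19 where all genes had 13.9% (median centring). The lowest adjusted p of the 43 genes was 0.549, for BDNF with the scanner's processed signals. With array 1 or array 2 left out, each value is the ratio of the other array, with no test. The reported fit is already paired, since it takes each ratio within an array pair, and no further paired analysis was run. Signal over background limits FOSB, BDNF, DUSP10, EREG and PCK1, whose ratios the offset shrinks: with offset 0, EREG had -1.77 and 0.30 and BDNF had 0.81 and 0.80.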
